A study of Mus musculus with 9 samples.

Results

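Bile acid synthesis, conjugation and transport in the liver was followed through 10 genes: Cyp7a1, Cyp8b1, Cyp27a1 and Cyp7b1 for synthesis, Slc27a5 and Baat for conjugation, Slc10a1 and Abcb11 for transport, and Nr1h4 and Nr0b2 for regulation. They were taken by name, as the probe sets whose annotation carried that single gene symbol, and each gene had 1 probe set among the 28815 of the array, which cover 19935 genes in all by a single symbol. Liver RNA came from 9 female mice aged 15 to 16 months, with 1 mouse per array and 3 mice per group, on Affymetrix Mouse Gene 1.0 ST arrays. WTCR mice were wild type and ate a restricted amount of calories for a short term, first in a milder and then in a deeper step. Dgat1-/-AL mice lacked Dgat1, which joins an acyl chain to diacylglycerol to form triglyceride, in the whole body on a C57BL/6J background, and ate ad libitum. WTAL mice were wild-type littermates that ate ad libitum. The methods name a standard chow for all studies and a calorie-restriction diet for WTCR, whose composition they do not give, so the restricted amount and any difference in diet cannot be told apart. All mice were housed singly, and none carried another allele or agent that the labels name. The arrays were made to ask whether calorie restriction and Dgat1 deficiency change the same genes in the liver.

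Hepatocytes make bile acids from cholesterol. In the classical pathway Cyp7a1 takes the rate-limiting step and Cyp8b1 directs the product to cholic acid, while in the alternative pathway Cyp27a1 oxidizes the side chain and Cyp7b1 hydroxylates the resulting oxysterols. The acids are then activated to their CoA esters, joined mostly to taurine in mice, pumped into bile, absorbed in the intestine and taken up again from portal blood. Bile acids bind the nuclear receptor FXR, encoded by Nr1h4, which induces the repressor SHP, encoded by Nr0b2, and lowers transcription of the synthesis enzymes.

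Values are log2 signals from RMA, in which background was corrected, the distributions of the arrays were made equal and the probes of each probe set were combined, so that a difference of 1 is a doubling. A gene was called (higher or lower) where its fold exceeded 1.3 and its unadjusted limma p was below 0.05, and p-values adjusted by Benjamini-Hochberg over all 28815 probe sets are given beside the calls. Signals of different probe sets are not comparable as amounts, and 3 arrays per group limit the precision of every difference. In whole liver, fewer cells of a type and less RNA per cell cannot be told apart.

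Dgat1 itself had signals of 8.90, 8.76 and 8.56 in WTCR, 6.14, 5.84 and 5.39 in Dgat1-/-AL, and 7.86, 5.67 and 8.04 in WTAL. By this 1 gene, the array labelled WTAL replicate 2 lay among the Dgat1-/-AL arrays and went against its label. The cell markers Clec4f, Stab2, Lyve1 and Clec4g stayed called in Dgat1-/-AL against WTAL without this array. In each of them it lay outside the Dgat1-/-AL range, as with Clec4g at 11.63 against 10.84 to 11.11. Whether the label is wrong was not tested. The calls against WTAL that ended without this array are named as such. Of the 4 calls on the 10 genes in WTCR against WTAL, 3 held without it, and the 1 call in Dgat1-/-AL against WTAL held too. The array of Dgat1-/-AL replicate 1 stood apart on the second principal component, with a score of 42.1 against -15.3 to 15.9 for the other 8. Without it, 5 of the 7 calls on the 10 genes in WTCR against Dgat1-/-AL held. The hepatocyte markers Alb, Ttr, Apoa1, Ahsg and Fga were present in every array, with the log2 of their summed signals at 15.88 to 15.96 in WTCR, 15.92 to 16.07 in Dgat1-/-AL and 15.90 to 15.99 in WTAL, and by the brightest probe set of each gene none was called in WTCR or in Dgat1-/-AL against WTAL. Fga, the fibrinogen alpha chain, was an exception by its dimmer probe set, which was called lower in WTCR than in WTAL (-1.23), and by the brighter one it was called lower in WTCR than in Dgat1-/-AL (-0.93).

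In WTCR livers, 1 of the 10 genes was called higher than in WTAL livers and 3 were called lower, where 4.25% of all probe sets were called higher and 3.81% lower. Nr1h4 was the higher one, by 1.34-fold, and Cyp8b1, Cyp7b1 and Abcb11 were 2.03-fold, 1.5-fold and 1.37-fold lower. In Dgat1-/-AL livers, none of the 10 genes was called higher and 1 was called lower than in WTAL, where 0.465% of all probe sets were called higher and 0.76% lower, and the lower gene was Cyp7a1, by 1.66-fold. The direct comparison of WTCR with Dgat1-/-AL called 3 of the 10 genes higher in WTCR (Cyp7a1, Nr1h4 and Slc10a1) and 4 lower (Cyp8b1, Cyp7b1, Nr0b2 and Abcb11), where 4.66% of all probe sets were called higher and 3.93% lower.

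Bright probe sets were called more often than dim ones, and all 10 genes were bright, with group means above a log2 signal of 6. Among the 13933 probe sets above that level, 8.07% were called higher and 6.68% lower in WTCR against WTAL, 0.775% higher and 1.21% lower in Dgat1-/-AL against WTAL, and 8.78% higher and 7.19% lower in WTCR against Dgat1-/-AL. The median log2 fold change of the 10 genes was -0.14 in WTCR and -0.05 in Dgat1-/-AL against WTAL, and -0.08 in WTCR against Dgat1-/-AL, while that of all probe sets was 0.00, 0.00 and 0.01. At an adjusted p below 0.05 in limma, no gene of the 10 passed in WTCR against WTAL, where 1.62% of all probe sets were higher and 1.41% lower, although 5 of the 10 had an unadjusted p below 0.05. None passed in Dgat1-/-AL against WTAL, where 0% of all probe sets passed in either direction and 1 of the 10 had an unadjusted p below 0.05. Between WTCR and Dgat1-/-AL, where 1.77% were higher and 1.29% lower, only Cyp7b1 passed, as lower in WTCR. The comparisons against WTAL share the same 3 control arrays.

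**Figure D1:**
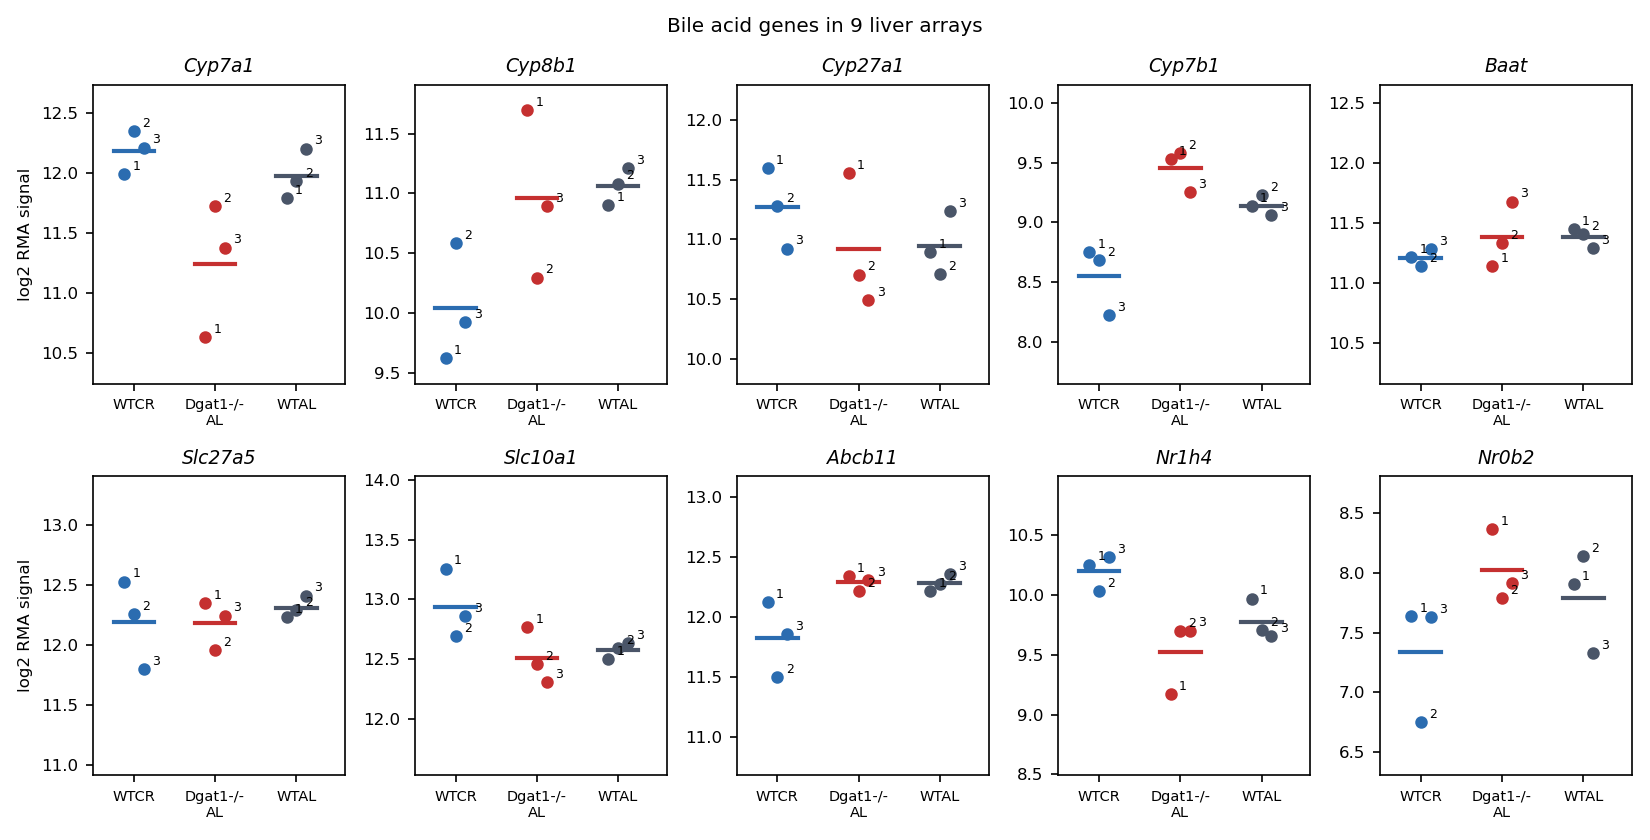
Log2 RMA signal of the 10 genes in WTCR, Dgat1-/-AL and WTAL livers (horizontal axis, from left to right); points are single arrays numbered by replicate, lines are group means, and every panel spans the same number of log2 units around its own middle. Cyp7b1 was between 8.23 and 8.76 in the 3 WTCR arrays, below every other array, and Cyp7a1 was between 10.63 and 11.73 in the 3 Dgat1-/-AL arrays, below every other array.

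Cyp7a1 (probe set 10511375), the rate-limiting enzyme of the classical pathway, had signals of 11.99, 12.35 and 12.22 in WTCR, 10.63, 11.73 and 11.38 in Dgat1-/-AL, and 11.79, 11.93 and 12.21 in WTAL. All 3 Dgat1-/-AL arrays lay below all 6 wild-type arrays, and the WTCR and WTAL arrays overlapped. Replicate 1 was the lowest of the Dgat1-/-AL arrays, by 0.75 below the next.

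The log2 fold change of Cyp7a1 was -0.73 ± 0.25 (SE; 95% interval -1.30 to -0.16) in Dgat1-/-AL against WTAL, with an unadjusted p of 0.0175 and an adjusted p of 0.972. It was called lower at -0.75 without the array labelled WTAL replicate 2 and at -0.43 without Dgat1-/-AL replicate 1, but not at -0.62 without WTAL replicate 3 (unadjusted p = 0.0655). The WTCR difference from WTAL was 0.21 ± 0.25 (95% interval -0.36 to 0.78), which did not pass. Cyp7a1 was 1.92-fold higher in WTCR than in Dgat1-/-AL, with a log2 fold change of 0.94 ± 0.25 and an adjusted p of 0.0916, and this call held when any of the 9 arrays was left out.

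Cyp8b1 (probe set 10597875), the enzyme that sets the share of cholic acid, had signals of 9.62, 10.58 and 9.93 in WTCR, 11.70, 10.30 and 10.89 in Dgat1-/-AL, and 10.90, 11.08 and 11.21 in WTAL. Every WTCR array lay below every WTAL array, while the Dgat1-/-AL arrays spread over 1.40 log2 units and reached from within the WTCR range to above the WTAL range. Against WTAL, the log2 fold change in WTCR was -1.02 ± 0.35 (SE; 95% interval -1.81 to -0.23), the largest of the 10 genes in size, with an unadjusted p of 0.0169 and an adjusted p of 0.188.

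That call on Cyp8b1 was at -1.01 without the array labelled WTAL replicate 2, and it ended at -0.95 without WTAL replicate 3, -0.81 without WTCR replicate 1 and -0.96 without WTCR replicate 3. For Dgat1-/-AL against WTAL the log2 fold change was -0.10 ± 0.35 (95% interval -0.89 to 0.68). Between WTCR and Dgat1-/-AL it was -0.92 ± 0.35, with an unadjusted p of 0.0273, and -0.55 without Dgat1-/-AL replicate 1, which was not called. Same-numbered arrays of these groups varied together mainly in replicate 1 (Pearson r of 0.477 over probe sets). With the replicate number as a block in limma, the difference of -0.92 no longer passed over 9 arrays (unadjusted p = 0.0529). Over the 6 arrays of these groups it did not pass either (unadjusted p = 0.105).

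Cyp27a1 (probe set 10347481), the mitochondrial enzyme that starts the alternative pathway, had signals of 11.60, 11.28 and 10.92 in WTCR, 11.56, 10.71 and 10.49 in Dgat1-/-AL, and 10.89, 10.71 and 11.24 in WTAL. The groups overlapped throughout, and no comparison called it. Its log2 fold change was 0.32 ± 0.28 (95% interval -0.32 to 0.97) in WTCR and -0.03 ± 0.28 in Dgat1-/-AL against WTAL. Without Dgat1-/-AL replicate 1, the highest of its group, Cyp27a1 was called higher in WTCR than in Dgat1-/-AL, at 0.67 in place of 0.35.

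Cyp7b1 (probe set 10497381), the oxysterol hydroxylase of the alternative pathway, was the gene whose 3 groups separated most cleanly. Its signals were 8.76, 8.68 and 8.23 in WTCR, 9.53, 9.58 and 9.25 in Dgat1-/-AL, and 9.14, 9.23 and 9.06 in WTAL. No array of a group lay within the range of another group, with WTCR lowest, WTAL between and Dgat1-/-AL highest, although only 0.02 log2 units separated the lowest Dgat1-/-AL array and the array labelled WTAL replicate 2.

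Cyp7b1 had a log2 fold change of -0.59 ± 0.15 (SE; 95% interval -0.92 to -0.26) in WTCR against WTAL, with an unadjusted p of 0.00319 and an adjusted p of 0.0761. It stayed called without any 1 of the 9 arrays, at -0.69 to -0.42. Against WTAL the Dgat1-/-AL difference was 0.31 ± 0.15 (95% interval -0.02 to 0.64; unadjusted p = 0.0610), and it was called higher, at 0.41, only without Dgat1-/-AL replicate 3. Between WTCR and Dgat1-/-AL it was -0.90 ± 0.15, a 1.87-fold lower signal in WTCR with an adjusted p of 0.0181, and this call too held without any 1 array.

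The conjugation genes were not called in any comparison. Slc27a5 (probe set 10560045), the bile acid CoA ligase, had signals of 12.53, 12.26 and 11.80 in WTCR, 12.35, 11.96 and 12.25 in Dgat1-/-AL, and 12.24, 12.29 and 12.41 in WTAL. Its groups overlapped, and its log2 fold change was -0.12 ± 0.18 (95% interval -0.52 to 0.29) in WTCR and -0.13 ± 0.18 in Dgat1-/-AL against WTAL.

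Baat (probe set 10512895), which joins the activated acid to taurine or glycine, had signals of 11.21, 11.14 and 11.28 in WTCR, 11.14, 11.33 and 11.68 in Dgat1-/-AL, and 11.45, 11.40 and 11.29 in WTAL. The WTCR arrays lay just below the WTAL arrays and the Dgat1-/-AL arrays spanned both. The log2 fold change was -0.17 ± 0.13 (95% interval -0.46 to 0.11) in WTCR and 0.00 ± 0.13 (95% interval -0.28 to 0.29) in Dgat1-/-AL against WTAL.

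The 2 transporters had differences of opposite sign in WTCR against WTAL, of which that of Abcb11 was called. Slc10a1 (probe set 10401289), which takes conjugated bile acids up from blood, had signals of 13.26, 12.70 and 12.86 in WTCR, 12.77, 12.46 and 12.30 in Dgat1-/-AL, and 12.50, 12.59 and 12.64 in WTAL. Every WTCR array was above every WTAL array, and the Dgat1-/-AL arrays overlapped both groups. The log2 fold change in WTCR against WTAL was 0.36 ± 0.16 (unadjusted p = 0.0477), a fold of 1.29 that lay just under the fold limit and so was not called, and without WTCR replicate 2 it was called, at 0.48. The Dgat1-/-AL difference from WTAL was -0.07 ± 0.16. Slc10a1 was called 1.35-fold higher in WTCR than in Dgat1-/-AL (0.43 ± 0.16, unadjusted p = 0.0244), which ended without WTCR replicate 1 (0.27), Dgat1-/-AL replicate 2 (0.40) or Dgat1-/-AL replicate 3 (0.33).

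Abcb11 (probe set 10483410), the canalicular pump that exports bile salts into bile, had signals of 12.13, 11.50 and 11.86 in WTCR, 12.34, 12.22 and 12.31 in Dgat1-/-AL, and 12.22, 12.28 and 12.36 in WTAL. All 3 WTCR arrays lay below the 6 arrays of the other groups, which covered nearly the same narrow range. The log2 fold change was -0.46 ± 0.14 (SE; 95% interval -0.77 to -0.14) in WTCR against WTAL, with an unadjusted p of 0.00967 and an adjusted p of 0.142. It was also -0.46 without the array labelled WTAL replicate 2. WTCR replicate 2 had the lowest signal, and without it the difference was -0.29, under the fold limit. In Dgat1-/-AL against WTAL it was 0.01 ± 0.14 (95% interval -0.31 to 0.32), and in WTCR against Dgat1-/-AL -0.46 ± 0.14 (unadjusted p = 0.00897), or -0.30 and not called without WTCR replicate 2.

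Nr1h4 (probe set 10371784), the bile acid receptor FXR, had signals of 10.26, 10.03 and 10.32 in WTCR, 9.17, 9.70 and 9.70 in Dgat1-/-AL, and 9.97, 9.71 and 9.65 in WTAL. The WTCR arrays were above all 6 others, and Dgat1-/-AL replicate 1 was the lowest of all 9. Against WTAL the log2 fold change in WTCR was 0.42 ± 0.16 (SE; 95% interval 0.06 to 0.78), with an unadjusted p of 0.0258 and an adjusted p of 0.236. This call ended without the array labelled WTAL replicate 2 (0.39, unadjusted p = 0.0736), and also without WTAL replicate 3 (0.36), WTCR replicate 1 (0.40) or WTCR replicate 3 (0.37).

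In Dgat1-/-AL against WTAL the log2 fold change of Nr1h4 was -0.26 ± 0.16 (95% interval -0.61 to 0.10). Between WTCR and Dgat1-/-AL it was 0.68 ± 0.16, a 1.60-fold higher signal in WTCR with an adjusted p of 0.0593, which held without any 1 array and was 0.50 without Dgat1-/-AL replicate 1.

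Nr0b2 (probe set 10508887), the repressor SHP that FXR induces, had signals of 7.64, 6.75 and 7.63 in WTCR, 8.37, 7.79 and 7.91 in Dgat1-/-AL, and 7.91, 8.14 and 7.33 in WTAL. The WTCR arrays lay below all Dgat1-/-AL arrays but overlapped WTAL, whose replicate 3 was below 2 of them. Against WTAL the differences were -0.45 ± 0.29 (95% interval -1.11 to 0.21) in WTCR and 0.23 ± 0.29 in Dgat1-/-AL, neither of which passed. In WTCR against Dgat1-/-AL it was -0.68 ± 0.29 (unadjusted p = 0.0441), and this call ended without WTCR replicate 2 (-0.39), Dgat1-/-AL replicate 1 (-0.51), Dgat1-/-AL replicate 3 (-0.74) or WTAL replicate 1 (-0.68).

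**Figure D2:**
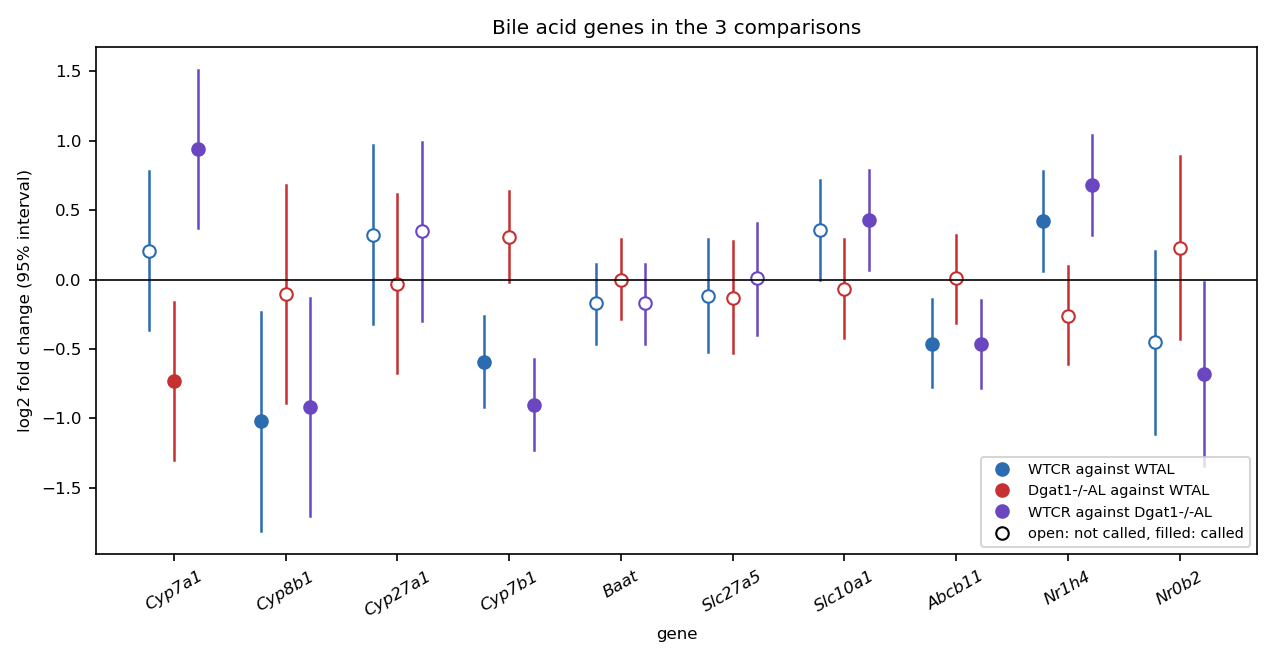
Log2 fold change of the 10 genes (horizontal axis) with 95% intervals from limma, for WTCR against WTAL, Dgat1-/-AL against WTAL and WTCR against Dgat1-/-AL; filled points passed the fold and p limits and open points did not. Cyp7b1 was at -0.59 in WTCR and 0.31 in Dgat1-/-AL against WTAL, and Cyp7a1 at 0.21 and -0.73.

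Promoter sequences were read for the receptor, for its target Nr0b2 and for called genes, from the RefSeq promoters of GRCm38.p6, which held 7 promoters of 6 of the 10 genes. Each sequence below is the 250 bases before the transcription start, written along the gene's strand, with capitals for the nuclear receptor core motif AGGTCA on either strand (read as TGACCT on the other strand) or for the E-box CACGTG, a motif bound by clock factors.
Cyp8b1 promoter, chr9:121916306-121916555, minus strand: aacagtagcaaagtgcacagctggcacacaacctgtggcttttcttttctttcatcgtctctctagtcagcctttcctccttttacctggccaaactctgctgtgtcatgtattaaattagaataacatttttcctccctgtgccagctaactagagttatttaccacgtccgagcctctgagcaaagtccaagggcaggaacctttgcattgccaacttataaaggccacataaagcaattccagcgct
Abcb11 promoter, chr2:69342617-69342866, minus strand: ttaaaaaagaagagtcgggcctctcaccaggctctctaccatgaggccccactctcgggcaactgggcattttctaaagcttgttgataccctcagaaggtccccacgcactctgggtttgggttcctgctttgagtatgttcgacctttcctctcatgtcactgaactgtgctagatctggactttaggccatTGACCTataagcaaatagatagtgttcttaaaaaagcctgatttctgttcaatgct
Nr1h4 promoter, chr10:89506659-89506908, minus strand: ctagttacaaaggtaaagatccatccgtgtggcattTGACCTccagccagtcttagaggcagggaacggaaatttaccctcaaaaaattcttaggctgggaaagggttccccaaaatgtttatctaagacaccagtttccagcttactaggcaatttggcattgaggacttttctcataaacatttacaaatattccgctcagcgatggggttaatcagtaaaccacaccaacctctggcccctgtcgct
Nr0b2 promoter, chr4:133553126-133553375, plus strand: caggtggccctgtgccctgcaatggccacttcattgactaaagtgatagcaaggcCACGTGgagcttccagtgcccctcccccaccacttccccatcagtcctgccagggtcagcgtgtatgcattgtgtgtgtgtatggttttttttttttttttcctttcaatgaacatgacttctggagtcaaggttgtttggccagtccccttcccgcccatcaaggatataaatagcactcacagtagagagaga
AGGTCA occurred in 3 of the 7 promoters, once each in Abcb11 (56 bases before the start), Nr1h4 (214 bases) and 1 of the 2 Slc10a1 promoters (87 bases), and in 14% of the 32851 windows of the same length over all genes. CACGTG occurred in Nr0b2 only (195 bases before the start) and in 6.02% of all windows. The printed Cyp8b1 window held neither motif. TCAAGGTCA and TCAAGGCCA, forms of the LRH-1 site of which the first contains AGGTCA, and the D-box TTATGTAA, bound by DBP and NFIL3, occurred in none of the 7 promoters, and in 0.387%, 0.511% and 0.819% of all windows. These are exact matches of letters on both strands and not measured binding. Near forms of a site were not searched, so a promoter without a match may still hold a site.

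Arrays of 1 group differed more for most of these genes than for a typical probe set. The pooled within-group SD was 0.50 log2 units for Cyp8b1, 0.42 for Nr0b2, 0.41 for Cyp27a1 and 0.36 for Cyp7a1, all above the 96th percentile of the 28815 probe sets, whose median was 0.13. Baat had the smallest, at 0.17, and the other 5 genes lay between 0.19 and 0.25. The percentiles and the median are over dim and bright probe sets together, and values for bright ones alone were not taken. For Cyp7a1 the SD was 0.56 in Dgat1-/-AL, with its low replicate 1, against 0.18 in WTCR and 0.21 in WTAL. Over the 9 arrays, deviations from the group mean had a Pearson r of -0.85 between Cyp8b1 and Nr1h4, -0.79 between Cyp27a1 and Baat, 0.78 between Slc10a1 and Abcb11, 0.78 between Nr1h4 and Baat, 0.76 between Cyp27a1 and Slc10a1, and -0.73 between Cyp27a1 and Nr1h4, the 6 strongest of 45 pairs. These are descriptions over points that share arrays and normalization.

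Dgat1-/-AL replicate 1 lay far from the WTAL mean for several of these genes. In this mouse Cyp7a1 was 1.35 log2 units and Nr1h4 0.61 units below the WTAL mean, and Cyp8b1 was 0.63, Cyp27a1 0.61 and Nr0b2 0.58 units above it. The same array had the highest signal of the clock gene Nr1d1, which encodes the repressor REV-ERBα, at 10.12. Nr1d1 was at 8.01 and 8.41 in the other Dgat1-/-AL arrays, 7.96 to 8.40 in WTCR and 8.19 to 8.70 in WTAL. The clock gene Dbp was at 7.24 in this array, between the other Dgat1-/-AL arrays (6.84 and 7.61). Genes outside the clock list were also highest of all arrays there, among them Rxra (9.54), Prox1 (8.83) and Fgfr4 (8.51). A link of these deviations to the clock was not tested.

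**Figure D3:**
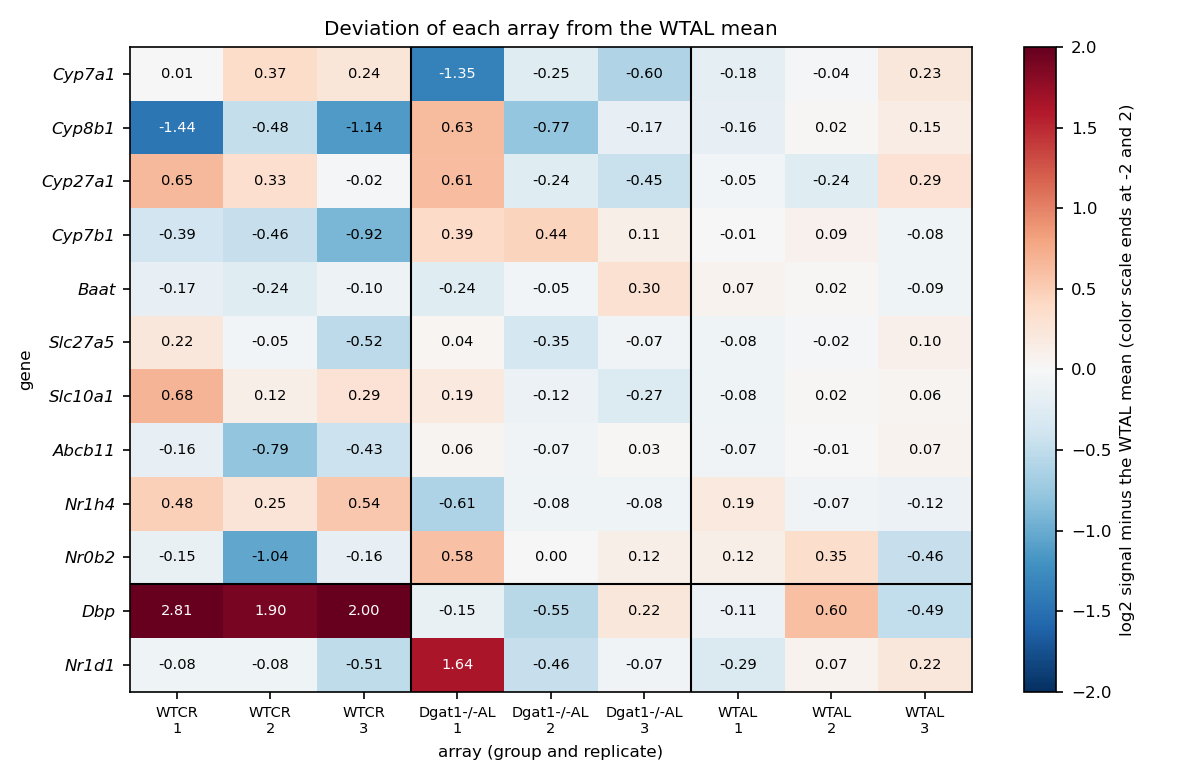
Log2 signal of each array (columns, by group and replicate) minus the WTAL mean for the 10 genes and, under the line, the clock genes Dbp and Nr1d1; red is above and blue below the WTAL mean. Dgat1-/-AL replicate 1 was at -1.35 for Cyp7a1 and 1.64 for Nr1d1, and the 3 WTCR arrays were between 1.90 and 2.81 for Dbp.

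Clock genes moved with calorie restriction. Dbp, an output factor of the liver clock, had signals of 10.20, 9.30 and 9.39 in WTCR, 7.24, 6.84 and 7.61 in Dgat1-/-AL, and 7.28, 7.99 and 6.90 in WTAL, a log2 fold change of 2.24 ± 0.33 in WTCR against WTAL with an adjusted p of 0.0152. Of 16 clock genes measured, 10 were called higher and 1, Nfil3, lower in WTCR, and none was called in Dgat1-/-AL, where limma gave none of the 16 an unadjusted p below 0.05. The shares of all probe sets were 4.25% higher and 3.81% lower in WTCR, and 0.465% and 0.76% in Dgat1-/-AL, each against WTAL. Cyp7a1 is known to follow the daily rhythm of feeding, and the hour of the last meal and of collection was not given for the groups, so calorie restriction and a shift in rhythm cannot be told apart in WTCR.

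Beyond the 10 genes, 42 of 43 other listed genes of bile acid handling were measured. In WTCR against WTAL, 11 were called higher, 4 lower and 27 were not called, with 6 at an adjusted p below 0.05, and their median log2 fold change was 0.10. Among all probe sets 4.25% were called higher and 3.81% lower there, and among the bright ones 8.07% and 6.68%. At an adjusted p below 0.05 in limma, 1.62% of all were higher and 1.41% lower. In Dgat1-/-AL against WTAL none of the 42 was called in limma, and Acox2 alone had an unadjusted p below 0.05 (0.27 ± 0.08, unadjusted p = 0.0097, a 1.21-fold difference), with a median of 0.05. Between WTCR and Dgat1-/-AL, 10 were called higher in WTCR and 8 lower, with a median of 0.11. The shares of all probe sets were 0.465% higher and 0.76% lower in Dgat1-/-AL against WTAL. They were 4.66% higher and 3.93% lower between WTCR and Dgat1-/-AL, or 8.78% and 7.19% of the bright ones.

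Among 15 enzymes of the sterol ring and side chain, 2 were called higher and 1 lower in WTCR. Hsd3b7, which oxidizes the products of both hydroxylation pathways in the next step, had signals of 10.49, 10.39 and 10.44 in WTCR, 11.16, 11.31 and 11.27 in Dgat1-/-AL, and 11.31, 11.25 and 11.01 in WTAL. The WTCR arrays lay well below all others, and the log2 fold change was -0.75 ± 0.09 (SE) against WTAL with an adjusted p of 0.00854, and -0.81 ± 0.09 against Dgat1-/-AL with an adjusted p of 0.00585. Cyp39a1, which hydroxylates an oxysterol made largely in the brain, had signals of 10.64, 10.79 and 11.03 in WTCR, 10.26, 9.24 and 9.91 in Dgat1-/-AL, and 9.05, 9.44 and 9.40 in WTAL.

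The WTCR arrays were again apart from all others, and Cyp39a1 exceeded its WTAL level 2.86-fold in WTCR (1.52 ± 0.24, adjusted p = 0.0176), with 0.50 ± 0.24 in Dgat1-/-AL against WTAL (unadjusted p = 0.0648). Acox2, which shortens the side chain in peroxisomes, was 1.35-fold higher in WTCR (0.43 ± 0.08, adjusted p = 0.0306), and 0.37, under the fold limit, without WTCR replicate 1. Amacr, a racemase of the side chain, and Cyp2c70, which makes the muricholic acids of mice, were called only between WTCR and Dgat1-/-AL, at -0.39 ± 0.16 and -0.46 ± 0.11. The call on Amacr ended without Dgat1-/-AL replicate 1 (-0.23), WTCR replicate 2 (-0.30) or WTCR replicate 3 (-0.34), with the 6 arrays of these groups (unadjusted p = 0.0751) and with array weights (-0.33), and that on Cyp2c70 held in each of these.

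Among 7 uptake and basolateral export genes, Slco1a4 and Slc51b were called higher and Slco1b2 lower in WTCR. Slc51b, which encodes 1 subunit of a basolateral bile acid exporter, had signals of 7.25, 6.94 and 8.01 in WTCR, 6.34, 6.23 and 6.61 in Dgat1-/-AL, and 6.08, 6.04 and 6.20 in WTAL. WTCR livers had 2.45-fold the WTAL level (1.29 ± 0.24, adjusted p = 0.0266), while its partner subunit Slc51a stayed at a dim 4.59 to 4.76 in WTCR and 4.80 to 4.88 in WTAL, a difference of -0.13 ± 0.07 that was not called.

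Slco1a4, an uptake carrier, was 1.91-fold higher in WTCR (0.93 ± 0.20, adjusted p = 0.0435). Slco1b2, another uptake carrier, was 1.36-fold lower (-0.45 ± 0.16, unadjusted p = 0.0218), which ended without WTCR replicate 2 (-0.38), and also without WTAL replicate 1 (-0.39) or the array labelled WTAL replicate 2 (-0.39). Slco1a1 stood out in WTAL replicate 1, at 5.69 against 3.13 to 3.58 in the other 8 arrays, and was not called. The Slco1a genes are near copies, so probes may read more than 1 of them.

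Of 6 other canalicular transport genes, 3 were called higher in WTCR than in WTAL and none lower. Abcg2, an exporter of conjugates and drugs, had signals of 8.91, 8.98 and 9.10 in WTCR, 8.46, 8.40 and 8.47 in Dgat1-/-AL, and 8.24, 8.16 and 8.41 in WTAL. Its log2 fold change was 0.73 ± 0.08 (adjusted p = 0.00744) in WTCR against WTAL and 0.55 ± 0.08 (adjusted p = 0.0137) in WTCR against Dgat1-/-AL, and both calls held without any 1 array.

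Abcg5 and Abcg8, which together form the pump that exports cholesterol into bile, were 1.66-fold and 1.67-fold above WTAL in WTCR livers. Abcg5 had signals of 10.73, 9.495 and 10.18 in WTCR, 9.23, 8.78 and 9.05 in Dgat1-/-AL, and 9.36, 9.52 and 9.33 in WTAL. WTCR replicate 1 was the highest and WTCR replicate 2 lay within the WTAL range. The call (0.73 ± 0.27, unadjusted p = 0.0236) ended without WTCR replicate 1 (0.43), WTCR replicate 3 (0.71), WTAL replicate 1 (0.71) or WTAL replicate 3 (0.70). That of Abcg8 (0.74 ± 0.31, unadjusted p = 0.0403) ended without WTCR replicate 1 (0.42), WTAL replicate 1 (0.56), WTAL replicate 3 (0.76) or Dgat1-/-AL replicate 3 (0.74), and with only the 6 arrays of the groups compared (unadjusted p = 0.0516). Atp8b1, a lipid flippase of the canalicular membrane, was called lower in WTCR than in Dgat1-/-AL only (-0.46 ± 0.12), and not without WTCR replicate 2 (-0.36).

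**Figure D4:**
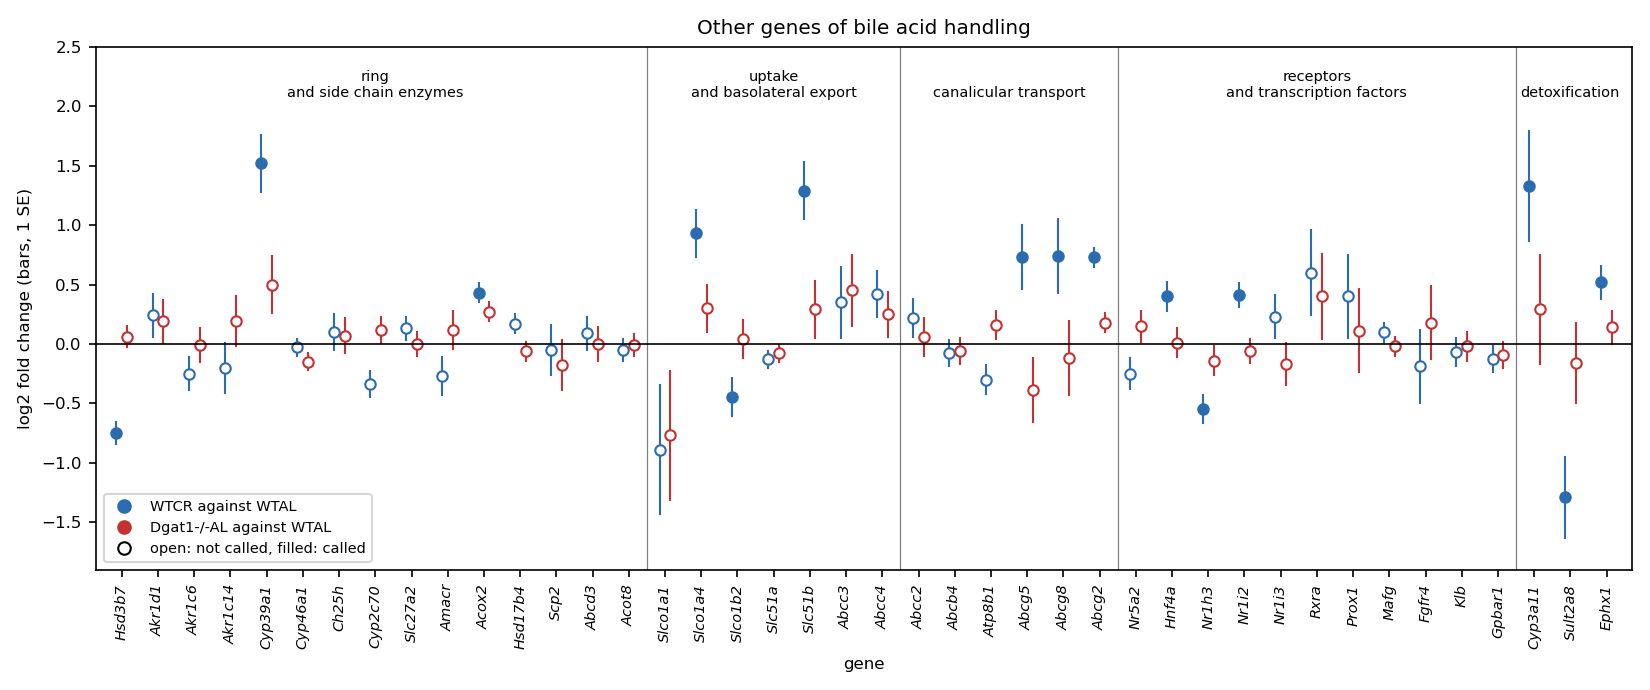
Log2 fold change with 1 SE of the 42 other genes of bile acid handling (horizontal axis, grouped by role) in WTCR against WTAL and Dgat1-/-AL against WTAL; filled points passed the fold and p limits. In WTCR 11 genes were called higher and 4 lower, with Cyp39a1 at 1.52 and Sult2a8 at -1.29, and in Dgat1-/-AL none was called.

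Of 11 receptors and transcription factors measured, Nr1i2 and Hnf4a were called higher and Nr1h3 lower in WTCR. Nr1h3, the oxysterol receptor LXRα, which induces Cyp7a1 in mice, had a log2 fold change of -0.55 ± 0.12 (adjusted p = 0.0554). Nr1i2, the xenobiotic receptor PXR, was at 0.41 ± 0.10, and 0.36 and not called without WTAL replicate 3, and Hnf4a, a hepatocyte factor that activates Cyp7a1 and Cyp8b1, at 0.40 ± 0.12, and 0.29 and not called without WTAL replicate 1. Nr5a2, the factor LRH-1 that SHP represses, was called only between WTCR and Dgat1-/-AL, at -0.40 ± 0.13, and not without Dgat1-/-AL replicate 1 (-0.36), Dgat1-/-AL replicate 3 (-0.36) or WTCR replicate 2 (-0.27).

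All 3 detoxification genes were called in WTCR against WTAL, 2 higher and 1 lower, and in limma 0 had an adjusted p below 0.05. Among all probe sets 4.25% were called higher and 3.81% lower there, and among the bright ones 8.07% and 6.68%. Sult2a8, a bile acid sulfotransferase of mouse liver, had signals of 10.99, 10.59 and 10.22 in WTCR, 10.95, 12.15 and 12.06 in Dgat1-/-AL, and 12.25, 11.82 and 11.58 in WTAL, and was 2.44-fold lower in WTCR livers than in WTAL livers (-1.29 ± 0.34, unadjusted p = 0.00431). Dgat1-/-AL replicate 1 lay within the WTCR range. Ephx1, the microsomal epoxide hydrolase, was 1.43-fold higher (0.52 ± 0.14, unadjusted p = 0.00606).

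Cyp3a11, a PXR target that hydroxylates bile acids, had signals of 12.79, 13.22 and 13.28 in WTCR, 11.14, 12.44 and 12.60 in Dgat1-/-AL, and 12.50, 11.87 and 10.93 in WTAL. WTCR livers had 2.52-fold the WTAL level (1.33 ± 0.46, unadjusted p = 0.0176), which ended without WTAL replicate 3 (0.92), WTCR replicate 2 (1.27) or WTCR replicate 3 (1.24). Its difference between WTCR and Dgat1-/-AL, 1.04 ± 0.46, passed narrowly (unadjusted p = 0.0496). It did not pass with the replicate block over 9 arrays (unadjusted p = 0.0766), without any WTCR array in turn (0.95 to 1.19), without Dgat1-/-AL replicate 1 (0.58) or without the array labelled WTAL replicate 2 (1.04). The Cyp3a and Sult2a families hold near copies, and probes may read more than 1 gene.

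Slc10a2, the apical bile acid carrier of ileum and bile duct cells, was measured as 1 of 7 cholangiocyte markers. Its signals were 4.59, 4.82 and 5.22 in WTCR, 6.52, 6.48 and 6.22 in Dgat1-/-AL, and 6.93, 6.14 and 6.89 in WTAL. All 3 WTCR arrays lay below all others, and Slc10a2 was 3.43-fold lower in WTCR livers than in WTAL livers (-1.78 ± 0.23, adjusted p = 0.0118), without exception when arrays were left out. The other 6 cholangiocyte markers (Krt7, Krt19, Epcam, Sox9, Cftr and Sctr) were not called, and the log2 of the summed signals of the 7 was 8.16 to 8.25 in WTCR, 8.48 to 8.60 in Dgat1-/-AL and 8.49 to 8.64 in WTAL. Without Slc10a2, that of the other 6 was 8.04 to 8.10 in WTCR, 8.14 to 8.21 in Dgat1-/-AL and 8.05 to 8.17 in WTAL. These 6 were dim or near a log2 signal of 6, with Cftr at 3.34 and Krt19 at 5.43 to 5.63 in WTCR. Signals this dim can show little of whether the share of bile duct cells differed.

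Markers of other liver cells also moved. Beside their counts, 4.25% of all probe sets were called higher and 3.81% lower in WTCR against WTAL. The shares were 0.465% and 0.76% in Dgat1-/-AL against WTAL, and 4.66% and 3.93% in WTCR against Dgat1-/-AL. Of 7 macrophage markers, Adgre1 and Clec4f were called lower in both WTCR and Dgat1-/-AL against WTAL. The log2 of the summed signals of all 7 was 10.92 to 11.69 in WTCR, 11.08 to 11.46 in Dgat1-/-AL and 11.35 to 11.91 in WTAL. The call on Adgre1 in Dgat1-/-AL (-0.85) ended without the array labelled WTAL replicate 2 (-0.74, unadjusted p = 0.0501), Dgat1-/-AL replicate 3 (-0.73) or WTAL replicate 3 (-0.64). Of 5 endothelial markers 1 was called lower in WTCR, while 1 was called higher and 2 lower in Dgat1-/-AL. In WTCR against Dgat1-/-AL, Lyve1 was called higher and Stab2, Kdr and Clec4g lower. The log2 of the summed signals of the 5 was 10.81 to 11.25 in WTCR, 11.33 to 11.61 in Dgat1-/-AL and 11.73 to 11.92 in WTAL. Clec4g counted by its brighter probe set, and its other one was dim and not called. With the mean of its probe sets Clec4g was not called in WTCR against Dgat1-/-AL (-0.23) or in Dgat1-/-AL against WTAL (-0.27). Its call in WTCR against Dgat1-/-AL also ended without WTCR replicate 2 (-0.32) or Dgat1-/-AL replicate 2 (-0.37). Of 5 stellate cell markers 2 were called lower in WTCR against WTAL, and in WTCR against Dgat1-/-AL 1 was higher and 2 were lower. The sums of the 5 were 11.75 to 11.91 in WTCR, 11.49 to 11.83 in Dgat1-/-AL and 11.62 to 11.86 in WTAL. A sum follows its brightest probe sets, which were Dcn for the stellate cells and Clec4g for the endothelium. The lower Lrat (-0.63) and Reln (-0.50) in WTCR against WTAL therefore hardly entered it. The same holds for the higher Stab2 (0.65) in Dgat1-/-AL against WTAL. All 3 B cell markers were called lower in WTCR against WTAL, with sums of 6.07 to 6.28 in WTCR, 6.35 to 6.49 in Dgat1-/-AL and 6.63 to 6.86 in WTAL. These markers were dim or near a log2 signal of 6, with Cd79a at 3.29 to 3.77 in WTCR and 3.85 to 4.17 in WTAL. The call on Cd79a (-0.44) ended without WTAL replicate 3 (-0.34) or WTCR replicate 2 (-0.33). The part of these cells in the bile acid results was not tested.

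For each of the 7 genes called in a comparison, the probe sets of most similar pattern were ranked by Pearson r over the 9 arrays, as a description. Abcb11 was most like Vps4b (0.989), Trim56 and Snx27 (0.983 each), Slc10a1 most like Smg6 (0.977), Simc1 (0.974) and Mtss1 (0.973), and Nr1h4 most like Rxylt1 (0.974), Phf14 and Nme4 (0.971 each). Cyp7a1 was most like Rad17 (0.969), Hdc (0.96) and Elfn1 (0.959), and Cyp8b1 most like Manf (0.966), E2f8 (0.962) and Irf5 (0.949). Cyp7b1 was most like C9 (0.966), Niban1 and Ugt3a1 (0.943 each), and Nr0b2 most like Erc2 (0.96), Stxbp4 (0.935) and Map2k1 (0.926). None of the 10 bile acid genes stood among another's 3 closest. With the probe sets of all genes ranked, this says little of whether the 10 vary together.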

How the data were processed

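The authors hybridised liver RNA of 3 mice per group to Affymetrix Mouse Gene 1.0 ST arrays and made the deposited log2 values with RMA (version not given in the sources used here). The deposited table held 28815 probe sets in 9 arrays, of which 21780 had 1 gene symbol, 1605 several and 5430 none in the platform annotation. All were kept. limma 3.58.1 in R 4.3.3 fitted 1 mean per group over the 9 arrays, with moderated tests, and p-values were adjusted by Benjamini-Hochberg over all probe sets. The fit was tested on simulated data. A gene counted as called at a fold above 1.3 and an unadjusted p below 0.05, and a gene with several probe sets counted by the brightest. All 10 genes are named, and of the wider list those called in a comparison. The genes, lists and rules were chosen with earlier results of these data known. The labels number replicates 1 to 3 in each group without saying what a number shares. Over probe sets, deviations of same-numbered arrays correlated at 0.477, 0.252 and 0.211 between WTCR and Dgat1-/-AL, and at -0.325 to 0.045 in pairs with WTAL. Between WTCR and Dgat1-/-AL the differently numbered pairs of replicates 2 and 3 came close to this, at 0.176 and 0.184. Only the pair of replicate 1 therefore stood apart. The replicate block was an alternative setting. Over all 9 arrays it grouped the WTAL arrays by number too. A block over the 6 arrays of WTCR and Dgat1-/-AL was chosen from the data. A pairing by number was not shown. P-values measure the spread between these mice. Alternatives were the replicate block, the 6 arrays of the groups compared, leaving out each array, stricter thresholds, a filter on dim probe sets, median centring, array weights and the mean of a gene's probe sets. Some listed genes are not reported here. Promoter sequences are from RefSeq (GRCm38.p6).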

Additional observations from a re-analysis of the deposited data

How the results depend on the processing

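Of the 100 values for counts of called genes under settings other than leaving out an array, 83 stayed within 1.5 times the count reported. Only the 17 that moved further are named in this paragraph. The share of all probe sets at an adjusted p below 0.05 is given above. For the fold limit of 1.5, array weights, the 6 arrays, the replicate block and left-out arrays it is not given. The counts under those settings therefore cannot be set against it. At an adjusted p below 0.05, the 10 genes gave 0 higher and 0 lower in WTCR against WTAL, 0 lower in Dgat1-/-AL against WTAL, and 0 higher and 1 lower in WTCR against Dgat1-/-AL, and the 42 further genes gave 5 higher and 1 lower in WTCR against WTAL and 2 higher and 1 lower in WTCR against Dgat1-/-AL. At a fold above 1.5 the 10 genes gave 0 higher in WTCR against WTAL, and the further genes 7 higher and 2 lower there and 6 higher and 2 lower in WTCR against Dgat1-/-AL. Array weights gave 2 further genes higher in Dgat1-/-AL against WTAL. With the 6 arrays of the groups compared, 1 further gene was lower in Dgat1-/-AL against WTAL and 2 of the 10 genes were lower in WTCR against Dgat1-/-AL. The cause of these changes was not tested.

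Leaving out each array gave, in WTCR against WTAL, 0 to 2 higher and 2 to 3 lower of the 10 genes and 8 to 13 higher and 3 to 6 lower of the 42. In Dgat1-/-AL against WTAL it gave 0 to 1 higher and 0 to 1 lower of the 10 and 0 to 2 higher and 0 lower of the 42. In WTCR against Dgat1-/-AL it gave 2 to 4 higher and 2 to 4 lower of the 10 and 7 to 11 higher and 4 to 8 lower of the 42. Only small differences that were not called turned their direction. They were Slc27a5 in WTCR against WTAL (-0.29 to 0.08) and in WTCR against Dgat1-/-AL (-0.16 to 0.21, and -0.06 with array weights), and in Dgat1-/-AL against WTAL Cyp8b1 (-0.47 to 0.23), Cyp27a1 (-0.35 to 0.19), Slc10a1 (-0.19 to 0.04), Abcb11 (-0.03 to 0.04, and -0.01 with array weights) and Baat (-0.14 to 0.12).

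With the replicate number as a block over 9 arrays, 1 gene of the 10 was higher and 3 lower in WTCR against WTAL, 0 higher and 1 lower in Dgat1-/-AL against WTAL, and 3 higher and 3 lower in WTCR against Dgat1-/-AL. The block over the 6 arrays of WTCR and Dgat1-/-AL, added after the data were seen, also gave 3 higher and 3 lower. Cyp8b1 was the call among the 10 that the block ended.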
